A study of Mus musculus with 4 samples.

Results

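Insulin-like growth factor 1 (Igf1), its receptor Igf1r and 6 binding proteins, Igfbp2 to Igfbp7, were followed across 4 mouse RNA samples on 1-colour Agilent arrays. The members were chosen by name. They comprised every non-control probe that the scanner files assign to 1 of these 8 genes, which gave 14 probes of 39365 and 8 gene names of 30183. The transfected tissue was ligament-like tissue of the C3H background, formed by mesenchymal stem cells after transfection with a mouse gene, given in the labels only as A. The gene was carried by pCAGGS, a vector whose promoter is strong and active in most cell types. The transgenic ligament came from C57BL/6J mice transgenic for A, made with the same construct, and the wild type ligament from C57BL/6J mice without it. The stem cells were untransfected mesenchymal stem cells of the C3H background, derived from mouse embryos and obtained from a cell bank. Gene A could not be checked on the arrays because the labels do not name it. The age and number of the animals, and whether their RNA was pooled, are not given in the sources used here. Each group held 1 array, so differences carry no p-value and could not be checked in replicates. Strain and origin differ together whenever a culture is set against ligament, and their parts cannot be told apart.

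Insulin-like growth factor 1 is a secreted peptide, made in the liver under growth hormone and also locally in connective tissue. It acts through the receptor tyrosine kinase Igf1r, which signals through insulin receptor substrates to the kinases PI3K and Akt. Most of the peptide outside cells is held by binding proteins, which lengthen its life and limit its access to the receptor until proteases cleave them. In tendon and ligament fibroblasts the factor is known to promote division and collagen synthesis.

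The Igf1 probes are shown because their readings parted from each other. Each is given as its first 30 of 60 bases, 5′ to 3′, from the scanner files. All lie on the plus strand of chromosome 10 in mm9, in the order in which they follow each other along the gene. The first belongs to transcript variant 2 and the others to transcript variant 1. The second and the third overlap by 40 bases, and the capitals mark the 10 bases of that overlap that both printed stretches hold.
Igf1 A_55_P2085979, chr10:87378456-87378515: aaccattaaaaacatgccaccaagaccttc
Igf1 A_55_P2085984, chr10:87393561-87393620: cctaccaaataacaataataAGTCCAATAA
Igf1 A_55_P2031631, chr10:87393581-87393640: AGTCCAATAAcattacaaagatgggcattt
Igf1 A_55_P2031636, chr10:87395924-87395983: agaaatgtaaatggaataagaggtcagctg
Igf1 A_55_P2085974, chr10:87399581-87399640: ctcctgattgtatttgaagtggttattcaa

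The Igfbp2 probe is shown whole, since it reads the end of the coding sequence. It holds 19 codons and then the stop codon, which is in capitals. The probes of Igfbp4, Igfbp5 and Igfbp6 are shown as their first 30 bases because, among the binding proteins, the largest differences with both arrays well above background rest on them, each on a single probe.
Igfbp2, plus strand, chr1:72898677-72898736: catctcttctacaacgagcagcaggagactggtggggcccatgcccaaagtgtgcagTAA
Igfbp4, plus strand, chr11:98913334-98913393: gagaagagaaacctcattcttggagtgaga
Igfbp5, minus strand, chr1:72904829-72904888: cacatcacatattactgtagctctctatag
Igfbp6, plus strand, chr15:101979852-101979911: ctgtcacccttgggcctttacacagctagt

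Levels below are normalised signals, that is log2 of the scanner's background-subtracted signal minus the 75th percentile of that array. A value of 0 is therefore the level of that percentile, and values may be compared between arrays for 1 probe but not between probes. Depending on the array, 49.0% to 56.3% of non-control spots carried the software's mark for signal well above background. The 75th percentile itself was 2272 in the transfected tissue and 303 in transgenic ligament, with 285 in wild type ligament and 1165 in stem cells. Repeated probes, with 10 spots each, had a within-array SD of log2 signal that lay between 0.0649 and 0.185. A difference between arrays is given with the error that the software assigns to the signals, which covers the spots and not the spread between cultures or animals. Genes that differed by 2-fold or more are called higher or lower. Where the mark is missing on the dimmer array, only a bound is given, written as at least N-fold. It is taken against the higher of that probe's own signal and the lowest signal well above background on that array.

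Igf1, the ligand, is represented by the third of its probes. It stood at 1.39 in the transfected tissue, -0.34 in transgenic and -0.17 in wild type ligament, and 0.96 in stem cells. Both cultures, as the transfected tissue and stem cells are called together, were above both ligaments. The order was transfected tissue, stem cells, wild type ligament, transgenic ligament, and the last pair differed by less than the software error of 0.21. The transfected tissue was 1.35-fold above stem cells, a log2 difference of 0.43 ± 0.20 (software error), and 2.94-fold above wild type ligament. Wild type ligament lay below stem cells by a log2 difference of -1.12 ± 0.21. Other probes of the gene gave other values, as described further on, and the mean over all of them gave 1.00 for the transfected tissue over stem cells. In RNA of a whole tissue or culture, fewer cells of a type and less RNA per cell cannot be told apart.

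Igf1r, the receptor, stood at 1.96 in the transfected tissue, 0.87 in transgenic and 0.87 in wild type ligament, and 2.11 in stem cells. Its order again put both cultures above both ligaments. The transfected tissue differed from stem cells by -0.14 ± 0.20, less than the software error, and this sign turned to 0.0089 when arrays were centred on probes well above background on all 4 arrays. Transgenic and wild type ligament differed by -0.000977 ± 0.20. The transfected tissue was 2.13-fold above wild type ligament, and wild type ligament was 2.35-fold below stem cells. In the plot of member levels, Igf1 and Igf1r show the narrowest vertical spread of the members measured on all arrays.

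**Figure D1:**
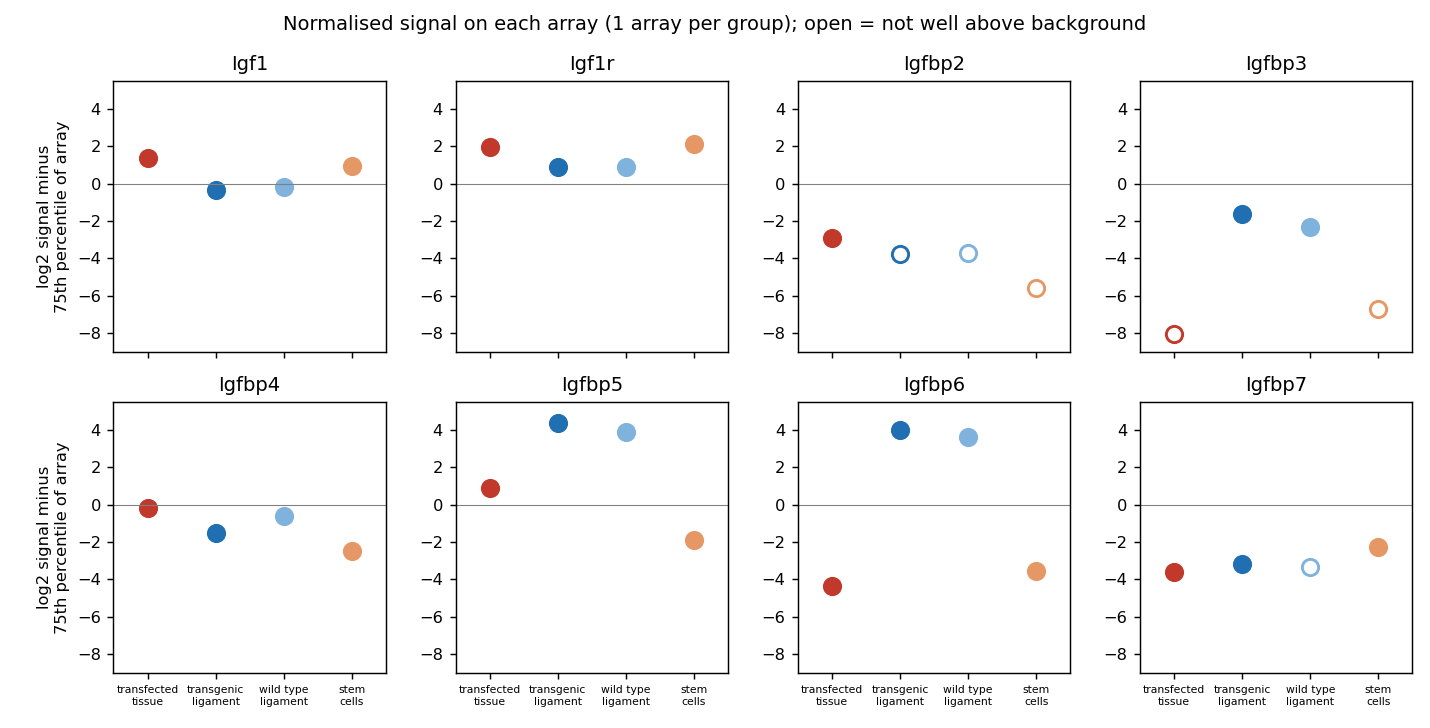
Normalised signal (log2 signal minus the array's 75th percentile) of the representing probe of each of the 8 members on each of the 4 arrays, from the transfected tissue on the left to stem cells on the right. Filled points were well above background and open points were not; Igfbp5 and Igfbp6 stand higher on both ligament arrays than on both culture arrays, at 4.39 and 3.98 in transgenic ligament and 3.88 and 3.60 in wild type ligament.

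Igfbp2, a binding protein that also binds integrins, was well above background only in the transfected tissue. Its probe stood at -2.89 there, against -3.79 in transgenic and -3.72 in wild type ligament, and -5.60 in stem cells, all 3 not well above background. By this probe the transfected tissue was at least 6.52-fold above stem cells, and it was at least 9.22-fold by the second Igfbp2 probe. Against the ligaments the bounds were lower, at least 1.43-fold over wild type ligament and at least 1.87-fold over transgenic ligament. The second probe gave at least 1.78-fold and at least 2.49-fold in those comparisons. With quantile normalization the log2 bounds of the first probe were 1.36 and 1.95, past 2-fold. The bound over stem cells, 2.71 on the log2 scale, was 1.08 with normexp background correction.

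Igfbp3, the main carrier of the growth factors in blood, showed the opposite arrangement. It stood at -8.04 in the transfected tissue, -1.62 in transgenic and -2.31 in wild type ligament, and -6.71 in stem cells. Both ligament values were well above background and neither culture value was. Set against ligament, the transfected tissue was at least 17.0-fold below transgenic ligament and at least 10.6-fold below wild type ligament. Wild type ligament was at least 11.1-fold above stem cells. With the mean of both Igfbp3 probes these log2 bounds of -4.09, -3.41 and 3.48 became -2.19, -1.77 and 1.85. Transgenic ligament was 1.61-fold above wild type ligament, a log2 difference of 0.69 ± 0.25. The second Igfbp3 probe was not well above background on any of the 4 arrays.

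Igfbp4, mostly known as an inhibitor of growth factor action, stood at -0.17 in the transfected tissue, -1.54 in transgenic and -0.62 in wild type ligament, and -2.50 in stem cells. It was highest in the transfected tissue and lowest in stem cells. Over stem cells the transfected tissue was 5.04-fold higher, with a log2 difference of 2.33 ± 0.21, and over wild type ligament 1.36-fold. Transgenic ligament differed from wild type ligament by -0.92 ± 0.22, just within 2-fold, and passed it at -1.08 with quantile normalization and -1.14 in the deposited value table. Wild type ligament was 3.70-fold above stem cells.

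Igfbp5, a binding protein that attaches to extracellular matrix and is abundant in bone and muscle, stood at 0.87 in the transfected tissue, 4.39 in transgenic and 3.88 in wild type ligament, and -1.89 in stem cells. The transfected tissue lay between the ligaments and stem cells. It was 6.79-fold above stem cells, a log2 difference of 2.76 ± 0.21, and 8.02-fold below wild type ligament. Wild type ligament was 54.5-fold above stem cells, and transgenic ligament was 1.43-fold above wild type ligament, at 0.51 ± 0.20. Before scaling the signals were 4163 in the transfected tissue and 4197 in wild type ligament, on arrays whose 75th percentiles were 2272 and 285. Under each of the 7 alternatives from the initial list Igfbp5 was past 2-fold lower than in wild type ligament, with a log2 difference of -2.50 at the least. Each alternative scales the arrays to each other in some way, so they do not test the scaling on which this difference rests.

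Igfbp6, which prefers insulin-like growth factor 2 over 1, spanned the widest range of the 8 members, 8.32 on the log2 scale. It stood at -4.34 in the transfected tissue, 3.98 in transgenic and 3.60 in wild type ligament, and -3.55 in stem cells. Both ligaments were far above both cultures, with and without scaling. The unscaled signals were 112 in the transfected tissue, 4774 in transgenic and 3470 in wild type ligament, and 99.4 in stem cells. Its level in the transfected tissue was 246-fold below wild type ligament, a log2 difference of -7.94 ± 0.24, and differed from stem cells by -0.79 ± 0.25. Wild type ligament was 142-fold above stem cells. Transgenic ligament exceeded wild type ligament by 0.38 ± 0.20.

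Igfbp7, a low-affinity relative found around vessels, stood at -3.63 in the transfected tissue, -3.20 in transgenic and -3.35 in wild type ligament, and -2.27 in stem cells. It was highest in stem cells, and the wild type value was not well above background. In the cultures, the transfected tissue was 2.56-fold below stem cells, with a log2 difference of -1.35 ± 0.22. It differed from transgenic ligament by -0.42 ± 0.29, a value that moved widely with the processing. It was -1.23 with normexp, past 2-fold lower, but 0.58 with quantile normalization and 0.59 in the deposited value table. Wild type ligament was at least 2.11-fold below stem cells.

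Setting the transfected tissue against stem cells asks what accompanied the transfection and the formation of tissue. By their representing probes, most binding proteins differed more than the ligand or the receptor. For the ligand this rests on the choice of probe, since the last pair of Igf1 probes gave 1.94 and 2.51. Igfbp2, Igfbp4 and Igfbp5 were higher in the transfected tissue and Igfbp7 was lower, while Igf1, Igf1r and Igfbp6 lay within 2-fold. Igfbp3 had no value, being not well above background on both arrays. Thus 4 of the 7 members compared passed 2-fold, 3 higher and 1 lower, against 24.2% of the 17794 genes compared, 10.9% higher and 13.3% lower. The median over the members was 0.43, beside -0.08 over all genes compared. With the mean of all probes of a gene, Igf1 was at 1.00 and 5 of 7 members passed 2-fold, 4 higher and 1 lower. Of 17553 genes compared in that way, 1790 were higher and 2167 lower. All 6 proliferation markers were lower in the transfected tissue, and their summed level was 12.0 there against 126 in stem cells, in units of the 75th percentile. Of 6 adipocyte markers 4 were higher, with sums of 11.1 in the transfected tissue and 7.45 in stem cells. The part of either in the binding protein differences was not tested.

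**Figure D2:**
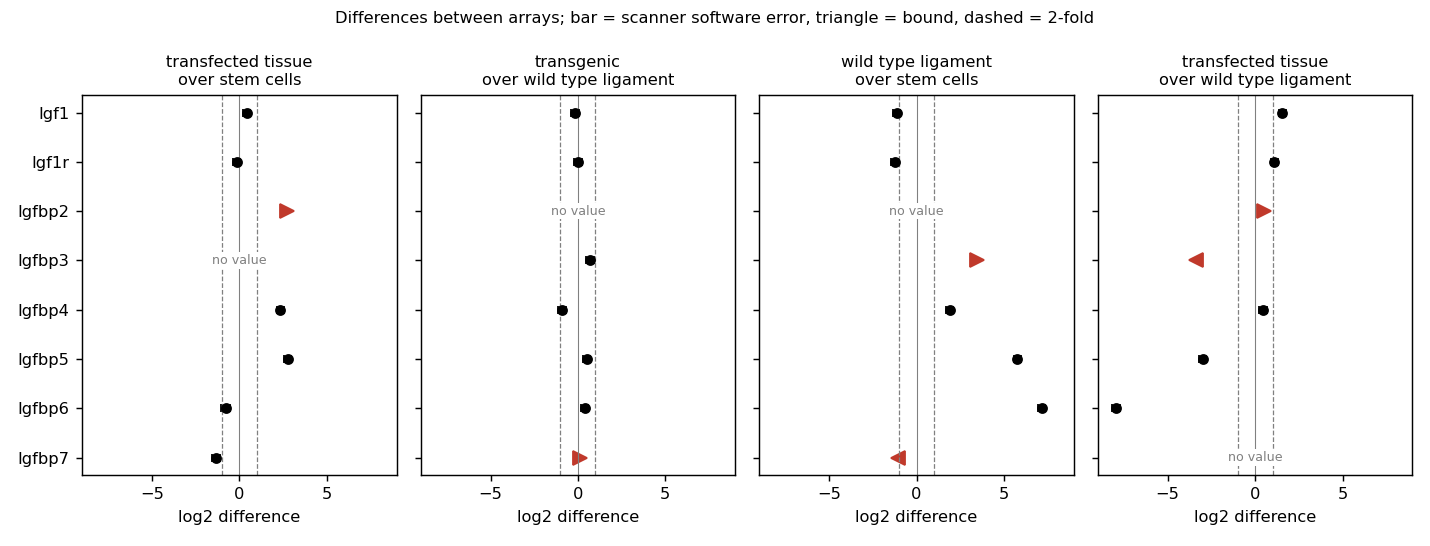
Log2 difference of each member's representing probe in 4 comparisons, with the scanner software's error as bars, which are mostly narrower than the points, red triangles for bounds (pointing in the direction in which the true difference can lie) and dashed lines at 2-fold. Symbols between the dashed lines in the second panel are the 7 members compared between transgenic and wild type ligament, Igfbp7 only as a bound. The outermost points are Igfbp6 at 7.15 in wild type ligament over stem cells and at -7.94 in the transfected tissue over wild type ligament.

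Transgenic against wild type ligament asks what accompanied gene A in the animal. With 1 array each, an effect of A and a difference between the samples taken cannot be told apart. Igfbp4 had the largest difference, at -0.92, followed by Igfbp3 at 0.69, Igfbp5 at 0.51 and Igfbp6 at 0.38, while Igf1 was at -0.17 and Igf1r at -0.000977. None of the 7 members compared passed 2-fold (0 of 7), against 13.3% of 16348 genes compared, 6.29% higher and 7.05% lower. With quantile normalization and with the deposited value table Igfbp4 passed it, 1 of 7, and counts this small do not set the members apart from that share. Their median was 0.14, which is the Igfbp7 bound, beside -0.03 over all genes compared. Markers of several other cell types differed between these arrays. All 7 neutrophil and all 7 erythroid markers were lower in transgenic ligament, with sums of 424.5 and 275.6 there, against 1178 and 1011 in wild type ligament. All 6 epidermis markers were higher, with sums of 155 in transgenic and 27.7 in wild type ligament, and so were 8 of 9 tendon and ligament markers, with 45.3 and 13.0. Of 5 osteoblast markers compared 4 were higher, and the sums over all 7 were 206 and 51.4. The part of these in the member values was not tested.

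Stem cells served as the baseline to show how the members lie in native ligament. The matrix-associated Igfbp5, together with Igfbp6, Igfbp3 and Igfbp4, was higher in ligament, and Igf1, Igf1r and Igfbp7 were lower. Each of the 7 members compared passed 2-fold, 4 higher and 3 lower, against 62.3% of the 16524 genes compared, 37.7% higher and 24.6% lower. Over members the median was 1.89, beside 0.30 over all genes compared. With so many genes past 2-fold, the count says little about the members. The Igf1 call rests on the choice of probe, since 3 of its 5 probes gave positive values.

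In the transfected tissue against wild type ligament, which shares its arrays with the comparisons above, Igf1 and Igf1r were higher and Igfbp3, Igfbp5 and Igfbp6 lower. By its variant 2 probe, however, Igf1 was lower than in either ligament, at -1.53 against wild type and -1.32 against transgenic ligament. With the mean of all its probes Igf1 lay within 2-fold of both, at 0.94 and 0.99. Igfbp4, at 0.45, and the bound for Igfbp2 lay within 2-fold. This made 5 of 7 members compared, 2 higher and 3 lower, against 62.7% of the 16468 genes compared, 23% higher and 39.7% lower. The members' median was 0.45, beside -0.42 over all genes compared, and it turned to -1.20 with normexp background correction. Against transgenic ligament, Igf1 (3.31-fold), Igf1r (2.13-fold) and Igfbp4 (2.57-fold) were higher in the transfected tissue, and Igfbp3, Igfbp5 (11.4-fold) and Igfbp6 (319-fold) were lower. With normexp the Igfbp4 difference of 1.36 became 0.97. Igfbp7, at -0.42, and the Igfbp2 bound, at least 1.87-fold, lay within 2-fold. The second Igfbp2 probe gave at least 2.49-fold. The Igfbp2 call held in only 2 of the 6 settings that gave a value, the main one included. By the representing probes 6 of 8 members passed 2-fold, 3 higher and 3 lower. Of 17524 genes compared 60.9% did, 21.8% higher and 39.1% lower. The median was 0.24, or -1.23 with normexp, beside -0.43 over all genes compared.

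Both ligament arrays carried markers of other tissues. All 7 skeletal muscle markers were well above background on each, with sums of 4452 in transgenic and 5568 in wild type ligament, against 0.636 in the transfected tissue (2 of 7 well above background) and 1.92 in stem cells (6 of 7). Macrophage markers summed to 14.0 in transgenic and 16.4 in wild type ligament (8 of 8 on each), against 1.79 in the transfected tissue and 2.26 in stem cells. Of the erythroid markers none was well above background in the transfected tissue. Osteoblast markers summed to 206 in transgenic and 51.4 in wild type ligament, against 1.41 in the transfected tissue and 0.517 in stem cells. For adipocyte markers the sums were 178 and 159 in the ligaments, against 11.1 and 7.45, and for endothelium 29.4 and 28.7, against 3.06 and 4.74. The labels were set against defining markers. Of tendon and ligament markers 9 of 9 were well above background in transgenic ligament and 8 of 9 in wild type ligament, where Mkx was not. On each culture array 7 of 9 were. Thbs4 and Chad were not in the transfected tissue, and Kera and Chad were not in stem cells. The 9 markers summed to 8.18 in the transfected tissue and 8.27 in stem cells, against 45.3 in transgenic and 13.0 in wild type ligament. Egr1, at 2.60 in the transfected tissue and 2.32 in stem cells, was the highest of the 9 there and weighs most in both culture sums. Of the 8 compared between the cultures 6 lay within 2-fold. In the transfected tissue 1 was higher, Kera, and 1 lower, Scx, at -1.18 against 0.57 in stem cells. As a list the tendon and ligament markers thus did not set the transfected tissue apart from stem cells. Mesenchymal stromal markers were well above background for 9 of 10 genes on both culture arrays, and Nt5e, the gene of CD73, was not. In transgenic ligament 10 of 10 were and in wild type ligament 9 of 10, so this count does not set the cultures apart. Their sums were 89.9 in the transfected tissue and 147 in stem cells, against 16.6 in transgenic and 14.2 in wild type ligament. The part of these other tissues in any difference between culture and ligament, including those of Igfbp3, Igfbp5 and Igfbp6, was not tested.

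The 5 Igf1 probes disagreed, and they did so differently in each comparison. The transfected tissue against stem cells gave, for the probes along the gene, log2 differences of -0.31, 0.44, 0.43, 1.94 and 2.51. The variant 2 probe was thus slightly lower in the transfected tissue, the overlapping pair slightly higher and the last pair 3.83-fold and 5.71-fold higher. Wild type ligament against stem cells gave 1.21, -1.22, -1.12, 1.29 and 0.13 in the same order, so that both directions passed 2-fold. The transfected tissue against wild type ligament gave -1.53, 1.65, 1.55, 0.65 and 2.38. Between transgenic and wild type ligament all 5 lay within 2-fold, from -0.23 to 0.44. The overlapping probes, which share 40 of their 60 bases, were farthest apart in the transfected tissue against transgenic ligament, at 1.88 and 1.73.

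**Figure D3:**
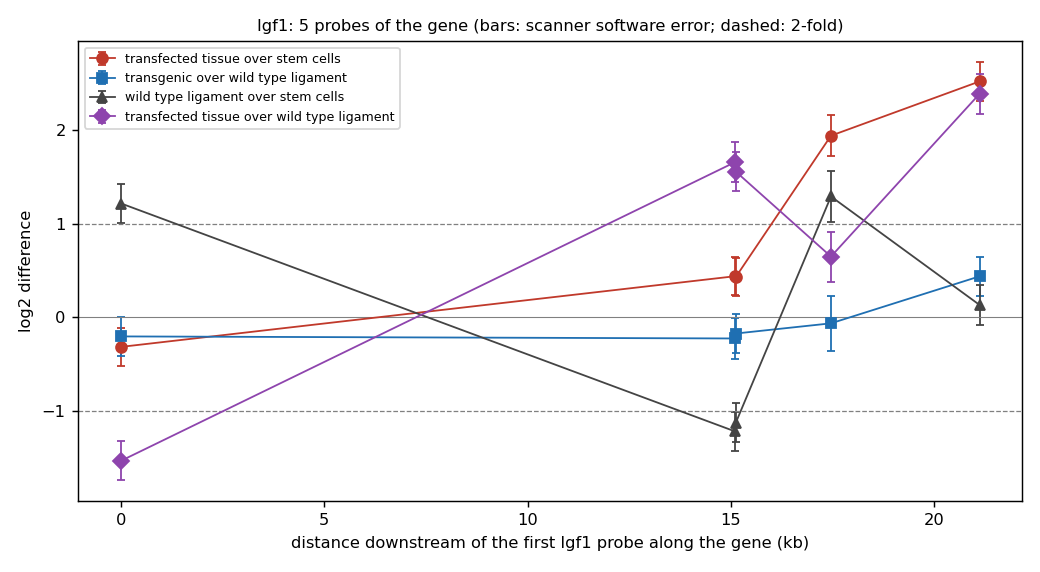
Log2 difference at each of the 5 Igf1 probes (vertical axis) against its distance from the first probe along the gene in kb (horizontal axis), for 4 comparisons, with the scanner software's error as bars and dashed lines at 2-fold. Toward the end of the gene, the transfected tissue over stem cells reaches 2.51 while transgenic over wild type ligament stays between -0.23 and 0.44.

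The signals of the outermost probes show what these differences rest on. The variant 2 probe stood at -0.78 in the transfected tissue, 0.54 in transgenic and 0.75 in wild type ligament, and -0.47 in stem cells. It was the only Igf1 probe on which both ligaments were above both cultures. The last variant 1 probe stood at 1.72 in the transfected tissue, -0.22 in transgenic and -0.66 in wild type ligament, and -0.79 in stem cells, and there the transfected tissue stood alone. All 5 probes were well above background on all 4 arrays. The fourth probe was near the dim end, with signals of 52.3 in transgenic ligament and 51.6 in wild type ligament before scaling.

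The spread between Igf1 probes was set against other genes with 5 or more probes measured on both arrays. For the transfected tissue over stem cells it was 2.83, and 2 of 29 such genes, Igf1 included, had at least that spread (6.90%, median 1.46). In wild type ligament against stem cells it was 2.50, matched or exceeded by 10 of 24 (41.7%, median 2.12). A shift toward the end of transcripts was common on the transfected tissue array. Over 1400 RefSeq accessions with probes at least 1000 bases apart, the difference at the downstream probe exceeded that at the upstream one by a median of 0.49, and it was the larger in 78.5% of them. For Igf1, with probes 6020 bases apart, it was 2.08, and 32 accessions (2.29%), that of Igf1 included, had a value as large. The accessions were not matched to Igf1 in the distance between their probes, here or in the other comparisons. The same median was 0.07 for wild type ligament over stem cells and -0.04 for transgenic over wild type ligament, where Igf1 stood at 1.35 and 0.66, values as large being found in 13.4% and 13.7% of accessions. For the transfected tissue over wild type ligament the median was 0.41 and Igf1 stood at 0.73, with 40% as large. Over transgenic ligament it was 0.56 and Igf1 stood at 0.07, with 62.7% as large. In these comparisons the Igf1 probe pair did not stand apart from other accessions. The part of this general shift in the Igf1 values was not tested.

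**Figure D4:**
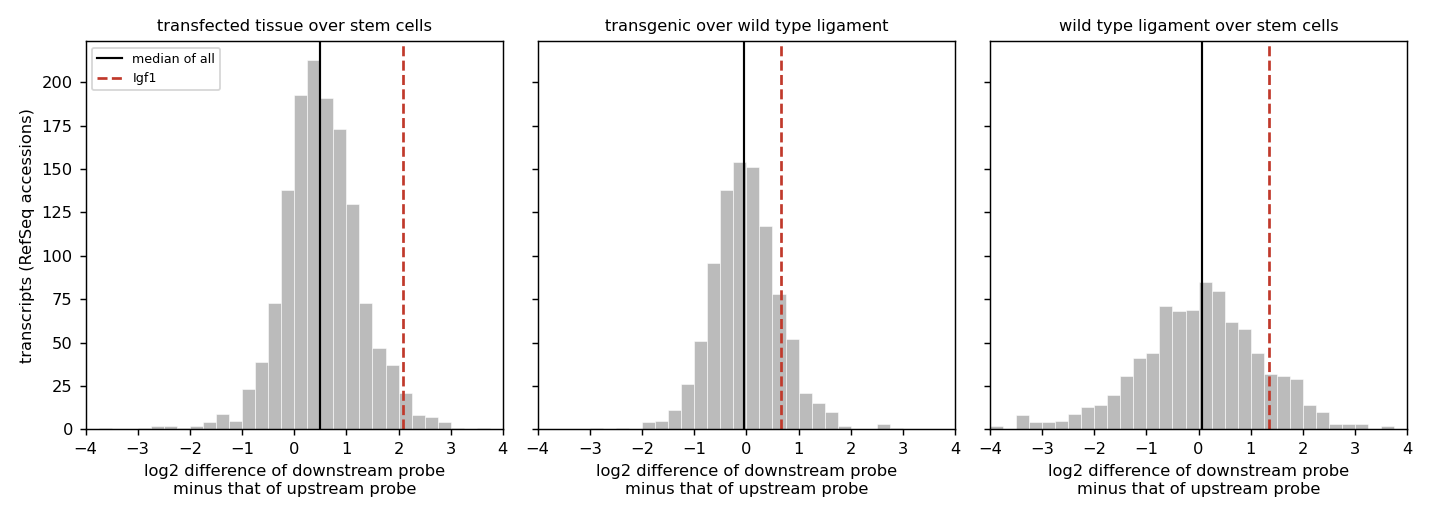
Number of RefSeq accessions (vertical axis) by the log2 difference at the downstream probe minus that at the upstream probe (horizontal axis), for probes at least 1000 bases apart, in 3 comparisons. The solid line is the median of all accessions, at 0.49, -0.04 and 0.07 from left to right, and the dashed line is Igf1, at 2.08, 0.66 and 1.35.

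Among 12977 genes well above background on all 4 arrays, the profile most like that of the representing Igf1 probe, after centring each gene on its mean, was that of Trim26. Its largest deviation from Igf1 on any of the 4 arrays was 0.0386. Parp14 and Myl9 followed, at 0.0547 and 0.0596. For Igfbp6, with the widest range, the nearest was an unnamed probe, A_55_P2185536, at 0.35, followed by Gm4055 at 0.38 and Usp13 at 0.42. With 4 arrays, many genes can share a profile.

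The genes Igfbp2 and Igfbp5 are neighbours on chromosome 1 in the RefSeq annotation of GRCm38, on opposite strands with 0 protein-coding genes between them, and their probes lie 5956 bases apart in mm9. Both were higher in the transfected tissue than in stem cells, Igfbp5 6.79-fold and Igfbp2 at least 6.52-fold. In the ligaments their signals ran differently. Igfbp5 was higher on both ligament arrays than on both culture arrays, and Igfbp2 was well above background only in the transfected tissue. Igfbp3 neighbours Igfbp1 on chromosome 11 in the same way, and Igfbp1 was not well above background on any of the 4 arrays. The promoters of Igfbp5 and Igfbp6 are shown because these members had the largest measured differences between wild type ligament and stem cells, 5.77 and 7.15. Each is the 250 bases before the start of the gene in RefSeq on GRCm38.p6, with an E-box in capitals, the letters CANNTG that basic helix-loop-helix factors can bind.
Igfbp5, minus strand, chr1:72874866-72875115: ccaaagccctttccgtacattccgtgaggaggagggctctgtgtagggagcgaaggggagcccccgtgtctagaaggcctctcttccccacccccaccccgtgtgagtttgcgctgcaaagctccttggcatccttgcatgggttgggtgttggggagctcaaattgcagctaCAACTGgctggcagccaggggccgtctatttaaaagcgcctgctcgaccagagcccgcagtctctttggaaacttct
Igfbp6, plus strand, chr15:102143936-102144185: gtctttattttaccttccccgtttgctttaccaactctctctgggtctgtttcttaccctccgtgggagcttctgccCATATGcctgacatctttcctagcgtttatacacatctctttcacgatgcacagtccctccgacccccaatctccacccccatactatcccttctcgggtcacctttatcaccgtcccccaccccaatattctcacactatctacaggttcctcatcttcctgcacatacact

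The letters CANNTG read the same way on both strands, and 66.2% of the 32851 RefSeq windows of 250 bases hold them. Of the members, windows of Igfbp7 and Igf1r held none. TATAAA, searched on both strands, was present in the windows of Igfbp4 and Igfbp6 and is in 12.4% of all windows. GGGCGG, a GC box, was present for Igf1r, Igfbp7 and 1 of the 2 Igfbp2 windows and is in 32.7% of all windows. The E-box and the GC box can share at most 1 base, and neither shares any with TATAAA. A match of letters says nothing on whether a factor binds.

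Other genes of the pathway were taken from lists of 35 genes, all found in the files. Of these 30 could be compared in the transfected tissue against stem cells, and 3 were higher and 4 lower (median -0.05, beside -0.08 over all genes compared). This lies near the share over all genes, 10.9% higher and 13.3% lower. Pappa, the protease that cleaves Igfbp4 and Igfbp5, stood at 0.10 in the transfected tissue, -3.61 in transgenic and -3.26 in wild type ligament, and -2.60 in stem cells. It was thus 6.48-fold above stem cells in the transfected tissue, where 2 of its substrates were also higher. Stc1, whose product inhibits pappalysins, was 2.41-fold higher. Adam12, another binding protein protease, was 5.96-fold lower and Pappa2 was at 0.07. In the signalling list Pik3ca, a catalytic subunit of PI3K, was 2.35-fold higher, and the adaptors Grb10 and Grb14, which restrain receptor signalling, were 3.28-fold and 2.27-fold lower. The transcription factor Foxo3 was 2.15-fold lower. By their representing probes none of the 6 genes of the growth hormone axis passed 2-fold, although the second Ghr probe gave -1.11.

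**Figure D5:**
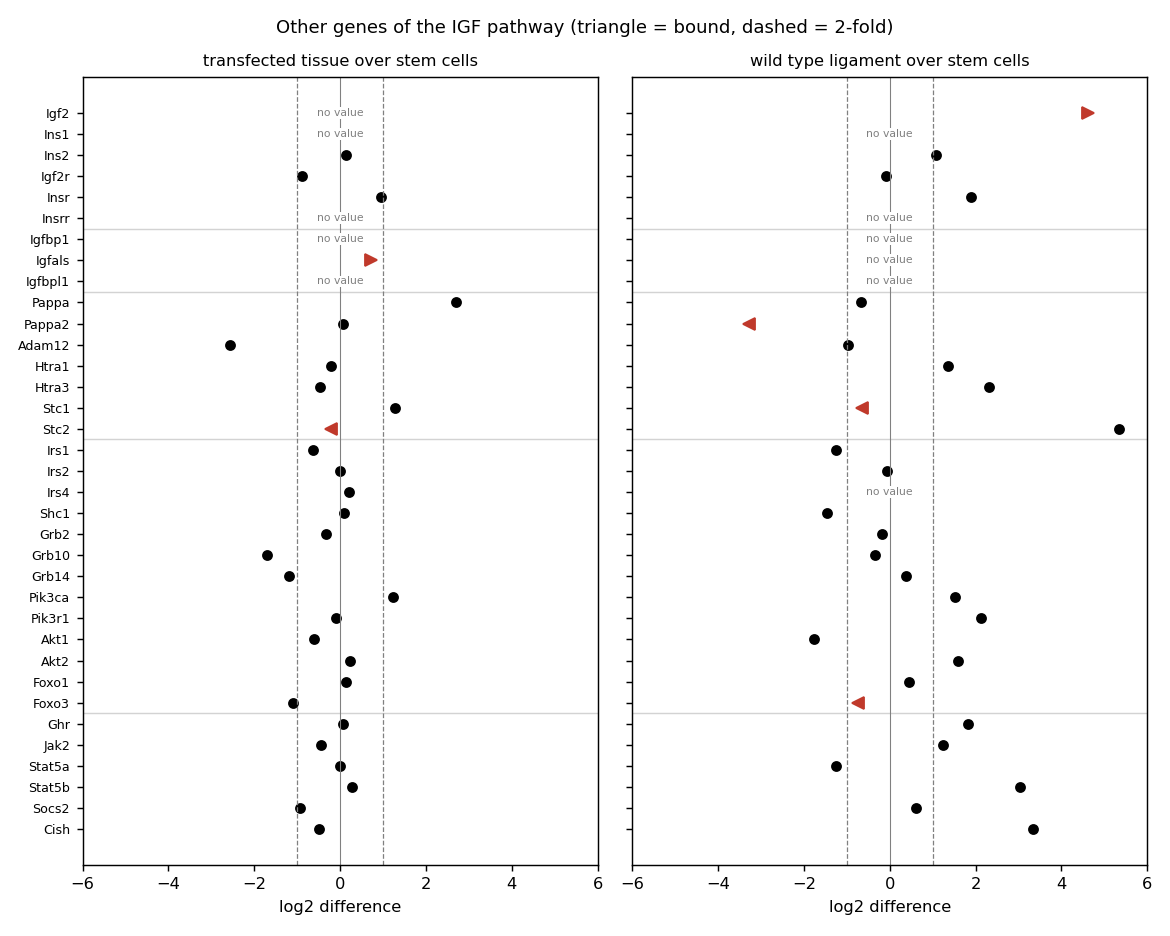
Log2 difference of 35 further pathway genes in the transfected tissue over stem cells (left) and wild type ligament over stem cells (right), grouped from top to bottom as ligands and receptors, other binding proteins, proteases and their inhibitors, receptor signalling and growth hormone axis; red triangles are bounds and dashed lines mark 2-fold. Pappa at 2.70 stands out on the left, and Stc2 at 5.35 and the bound for Igf2 at 4.61 on the right.

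Igf2, the second ligand, was well above background in both ligaments, at -1.83 in transgenic and -1.18 in wild type ligament, and on neither culture array, at -7.98 in the transfected tissue and -7.68 in stem cells. The transfected tissue was at least 23.3-fold below wild type ligament, and wild type ligament at least 24.4-fold above stem cells. By their representing probes, Igfbp3, Igfbp5 and Igfbp6 likewise stood higher on both ligament arrays than on both culture arrays. The insulin receptor gene Insr differed by 0.95 between the transfected tissue and stem cells, but its probes ranged from -0.31 to 0.95.

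Between transgenic and wild type ligament, 1 of 27 pathway genes compared was higher and 0 were lower by their representing probes. Of all genes 6.29% were higher and 7.05% lower. The gene that was higher was Cish, a feedback inhibitor of growth hormone signalling, at 1.02. The lowest of the 4 Akt2 probes gave -1.10. Wild type ligament against stem cells had 13 of 29 higher and 5 lower, with a median of 0.45, beside 0.30 over all genes compared. Past 2-fold over all genes were 37.7% higher and 24.6% lower, so the pathway count lies near that share. The growth hormone list had 4 of 6 higher, a list too short to read against 37.7%. These were Cish at 3.34, the signal transducer Stat5b at 3.04, the receptor Ghr at 1.83 and the kinase Jak2 at 1.25. Its Stat5a was lower, at -1.26, and the second Ghr probe gave 0.36. Among proteases and inhibitors, Stc2 (5.35), Htra3 (2.30) and Htra1 (1.36) were higher in ligament, and Pappa2 was at least 9.71-fold lower. In receptor signalling Akt1 (-1.77), Shc1 (-1.46) and Irs1 (-1.26) were lower and Pik3r1 (2.12), Akt2 (1.59) and Pik3ca (1.53) higher, although the other Irs1 probe gave 0.62.

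The transfected tissue against wild type ligament had 6 of 28 pathway genes higher and 14 lower (median -1.15), and against transgenic ligament 5 of 30 higher and 16 lower (median -1.13). Over all genes 23% were higher and 39.7% lower than in wild type ligament (median -0.42), and 21.8% higher and 39.1% lower than in transgenic ligament (median -0.43). Pappa was 10.3-fold and Pappa2 at least 10.2-fold above wild type ligament, and Cish was 14.2-fold and Stat5b 6.77-fold below it. Stc2 was at least 47.3-fold below wild type ligament. Genes not well above background on any of the 4 arrays were Ins1, Insrr, Igfbp1 and Igfbpl1.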

How the data were processed

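RNA of 4 samples was labelled with Cy3 and hybridised to 1 Agilent array each. Per the file headers, the deposited scanner files hold spot intensity on a linear scale, background-subtracted and detrended by Feature Extraction 10.7.1.1, with no scaling between arrays; the submitters' processing notes name version 9.5.1.1, and which is right is unsettled. In the deposited value table the intensity is linear too (column medians 49.3 to 49.4), with the method of its between-array scaling unstated. Each of its columns correlated best with the scanner file of its own array.

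Each array had 43020 non-control spots. Spots with outlier marks (155 to 281 on an array) were removed, and none was saturated. From the authors' intensity, log2 signal minus the 75th percentile was computed, spots of a probe were averaged, and a gene was represented by its brightest probe over the 4 arrays. Log2 of the deposited values was used only as an alternative. With 1 array per group no test was made. Precision is limited by the number of arrays. A gene was compared when its probe was well above background on at least 1 of the arrays, with a dim array entered at its bound. It was left out where the bright array did not exceed the dim array's bound, as for Igfbp7 in the transfected tissue and wild type ligament. The comparison step was tested on simulated data. Alternatives were normexp background correction (offset 50, limma 3.58.1 in R 4.3.3), another centring, quantile normalization, the deposited table, the mean of all probes, both arrays well above background, and no filter. Each other Igf1 probe was tried after seeing the data.

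The named genes were the 8 members, the 35 genes of the pathway lists and, for Igf1 and the member of widest range, the 3 genes of most like profile over the 4 arrays. Members, lists and alternatives were chosen with earlier results of these data known. Gene names and mm9 probe positions are those of the files. The RefSeq tables, on GRCm38, served for promoters and gene neighbours, and all 8 members matched. Python 3.11.15 with numpy 2.4.6, pandas 2.3.3 and matplotlib 3.10.9 was used.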

Additional observations from a re-analysis of the deposited data

How the results depend on the processing

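Of 36 differences of a member in a comparison, 27 kept the same call in each alternative from the initial list that gave them a value, and so did 18 of the 22 that were past 2-fold. Of those 18, 13 had a value in all 7 alternatives. The other 5 were bounds (Igfbp3 in 3 comparisons, Igfbp2 and Igfbp7), which the filter on both arrays leaves out, and Igfbp7 in wild type ligament over stem cells also had no value with normexp. The exceptions past 2-fold were Igf1 with the mean of all its probes, in 3 comparisons, and Igfbp4 in the transfected tissue over transgenic ligament with normexp, at 0.97. Those within 2-fold were Igfbp2 in the transfected tissue over each ligament and Igfbp7 there over transgenic ligament. Igfbp4 between the ligaments and Igf1 in the transfected tissue over stem cells were also among them. Igf1 in wild type ligament over stem cells, -1.12, turned to 0.0589 with the mean of all probes and to 1.29, 0.13 and 1.21 with 3 of its other probes. By the variant 2 probe, Igf1 turned to -1.53 in the transfected tissue over wild type ligament and to -1.32 over transgenic ligament. The member medians also moved. In the transfected tissue over stem cells the median was 1.00 with the mean of all probes, 0.14 with both arrays required above background and 0.14 with no filter. In wild type ligament over stem cells it was 1.53 with quantile normalization and 1.63 with the deposited table. In the transfected tissue over wild type ligament it was -1.20 with normexp, 0.60 with quantile normalization, 0.60 with the other centring, 0.64 with the deposited table and 0.084 with no filter. Over transgenic ligament it was -1.23 with normexp, 0.87 with quantile normalization and 0.90 with the deposited table. Between transgenic and wild type ligament 1 member (Igfbp4) passed 2-fold with quantile normalization and 1 with the deposited table. The cause of these moves was not tested beyond the change of setting itself.

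Quantile normalization moved the median of all genes from 0.30 to -0.13 in wild type ligament over stem cells, from -0.42 to 0.13 in the transfected tissue over wild type ligament and from -0.43 to 0.14 over transgenic ligament. The share of calls that were higher moved with it, from 60.6% to 50.5%, from 36.7% to 49.8% and from 35.8% to 51.8%. In the transfected tissue over stem cells that share was 45.0%, or 33.0% with normexp (1064 higher against 1939) and 56.1% with the other centring. Between the ligaments normexp gave 400 higher and 570 lower genes, against 1028 and 1152, and the filter on both arrays gave 679 and 782. With no filter the counts were 2131 and 2081 there, 2917 and 3566 in the transfected tissue over stem cells, 17324 and 4964 in wild type ligament over stem cells, 4675 and 17792 in the transfected tissue over wild type ligament and 4548 and 17325 over transgenic ligament. No paired analysis was possible because each group holds 1 array. Signal over background limits Igfbp2, Igfbp3 and Igfbp7, for which several comparisons give a bound or no value.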
